A study of Danio rerio with 18 samples.

Results

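A set of 200 zebrafish transcripts whose level was lower with all-trans retinoic acid at the 12-somite stage, with little difference at an earlier and a later stage, was examined across 18 RNA sequencing libraries of whole wild-type embryos. The members were chosen by their measured levels in these same libraries. For each stage, the log2 ratio of the mean CPM (counts scaled to a common library total) with atRA to that in controls was taken after adding 0.5 CPM to each mean. A ratio of -1 or lower at 12 somites and an absolute ratio under 0.5 at both other stages were required. Of 58549 transcript IDs, 227 met these conditions, and the 200 with the lowest 12-somite ratio are the members.

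The treated embryos received 0.1 µM all-trans retinoic acid (atRA), and the controls received DMSO. For the groups of 80% epiboly (late gastrula) treatment was given at 30% epiboly. For those of 12 somites and 24 hours post fertilisation (24 hpf) it was given at 80% epiboly, so stage and start of treatment differ together between the earliest groups and the others. Each of the 6 groups had 3 replicate libraries, and the labels do not say whether replicates were separate clutches or how many embryos were pooled, so p-values measure only the spread between libraries.

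Retinoic acid is made from vitamin A and acts by binding nuclear receptors that sit on DNA and switch transcription of nearby genes on or off. In vertebrate embryos it patterns the hindbrain and trunk from head to tail and acts in the forming somites, heart and other organs. Cells keep its level in bounds by degrading it with enzymes whose own genes respond to it. The IDs here are Ensembl transcript IDs that no name table used here pairs with genes (0 matched), so no member has a gene name or a known role, and the whole-embryo label could not be checked against marker genes. In whole embryos, fewer cells of a type and less RNA per cell cannot be told apart.

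Library totals were 77807705 to 86123564 counts with atRA and 87637013 to 88004323 in controls at 12 somites, so every atRA library was somewhat shallower where the members were chosen. At 80% epiboly they were 80522765 to 105463403 with atRA and 95326249 to 115511468 in controls, with overlap. At 24 hpf the atRA libraries were shallower, at 38673189 to 50505506 counts against 68391282 to 72734557 in controls. Some IDs share reads: 56 members fell into 25 sets whose counts differed by at most 5 counts or 5% in each library, so the 200 IDs hold 169 distinct profiles. Preparation batches are not given, so a batch that followed treatment cannot be told apart from it.

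A ratio of -1 or lower at 12 somites was found for 576 transcripts, and 39.4% of them, the 227, met the conditions at the other stages. The others failed at 24 hpf alone (231 transcripts), at 80% epiboly alone (62) or at both (56). Of those with a small ratio at 80% epiboly that failed at 24 hpf, 221 had a 24 hpf ratio of -0.5 or lower and 10 had one of 0.5 or higher. Among those that failed at 24 hpf alone, a lower level was thus more common than a higher one.

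The 12-somite ratios of the members ran from -3.92 to -1.04 with a median of -1.25. They lay at -3 or lower for 3 members, between -3 and -2 for 6, between -2 and -1.5 for 30 and above -1.5 for 161, so most of the members had ratios close to the limit. The last member had a ratio of -1.0395 and the next transcript, outside the set, -1.0371. The added 0.5 CPM makes the ratios of low transcripts smaller in size. Without it, levels with atRA were 31.9% of control levels at the median member, with quartiles of 24.2 and 39%. The log2 fold changes fitted by edgeR, which does not add 0.5 CPM, ran from -5.94 to -1.06 with a median of -1.63. The ratios at the other stages had medians of 0.0033 at 80% epiboly, against 0.05 for all transcripts with at least 1 CPM, and -0.18 at 24 hpf, against -0.08. The largest absolute ratios inside the limits were 0.49 at each stage, and the nearest transcripts outside had 0.50 at 80% epiboly and -0.50 at 24 hpf.

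**Figure D1:**
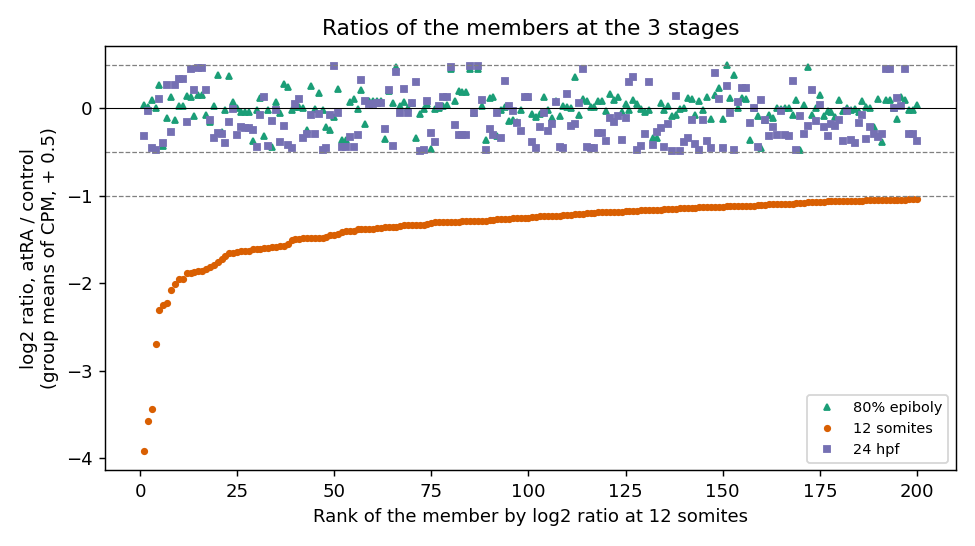
Log2 ratio of atRA to control (vertical axis) for each of the 200 members, ranked by their 12-somite ratio (horizontal axis); triangles are 80% epiboly, circles 12 somites and squares 24 hpf, and dashed lines mark the limits of the rule. The 12-somite ratios run from -3.92 to -1.04, and the 24 hpf ratios lie below 0 more often than above it.

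Replicates were close at 12 somites. The CPM of all members summed to 716, 726 and 717 in the atRA libraries, against 2025, 1987 and 1990 in the controls. The groups lay far apart, as the rule required of each member, with every atRA sum below every control sum. In each of the 200 members all 3 atRA libraries were below all 3 controls, a pattern that 26.1% of all tested transcripts showed. The median coefficient of variation among members with at least 1 CPM was 5.87% with atRA and 6.27% in controls. All 200 were called lower by edgeR at an adjusted p under 0.05, against 18.5% of all transcripts tested. The rule used these libraries, so nothing is read from these calls or from the gap between the groups.

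Few of these ratios rested on very low counts. The mean count per library at 12 somites had a median over members of 101 with atRA and 349.8 in controls. Fewer than 10 counts with atRA were found in 6 members. In 1 of them the atRA libraries held 0 to 2 counts against 61 to 84 in controls. With a floor of 3 counts per library, which covers counting error only, its level was at least 23.1-fold lower with atRA.

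The lowest ratio belonged to a transcript with 1.49, 1.29 and 1.14 CPM in the atRA libraries at 12 somites, against 28, 26.4 and 26 CPM in controls. It was nearly absent at 80% epiboly, with 1 to 3 counts in each atRA library and 0, 0 and 1 in controls. At 24 hpf it had 2.28, 1.47 and 2.79 CPM with atRA and 3.05, 2.45 and 3.01 CPM in controls, so the groups overlapped and both were far below the 12-somite controls. Its normal course was therefore a sharp peak at 12 somites, and with atRA the level at that stage was below the 24 hpf controls.

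The next transcript by ratio had 0.771, 0.604 and 0.479 CPM with atRA at 12 somites, against 13.8, 12.9 and 11.8 CPM in controls. Its levels at 24 hpf were 1.13, 1.03 and 1.43 CPM with atRA and 1.37, 1.03 and 1.29 CPM in controls. This transcript too was highest at 12 somites in controls, and its groups overlapped at 24 hpf.

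The transcript in the third place had counts in every library of the 3 stages. Its 12-somite values were 1.79, 2.08 and 1.74 CPM in atRA libraries, against 24.9, 25.5 and 24.9 CPM in control libraries. At 80% epiboly it had 0.434, 0.341 and 0.335 CPM with atRA and 0.362, 0.325 and 0.26 CPM in controls, with overlap. At 24 hpf it had 10.9, 11.5 and 9.35 CPM with atRA and 13.9, 13.7 and 16.6 CPM in controls, and all atRA libraries were below all controls. Its ratio there was -0.46, near the limit of the rule.

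The member in the fourth place had a different course. Its 12-somite values were 1.03, 0.743 and 0.888 CPM in atRA libraries and 8.39, 8.34 and 8.7 CPM in control libraries. By 24 hpf it was the member with the highest control mean, at 176, 147 and 212 CPM with atRA and 232, 336 and 175 CPM in controls. The groups overlapped there, and the controls varied widely. Its ratio at 12 somites thus concerned the low early phase of a transcript that was much higher at 24 hpf in both groups.

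For most members the small ratio at 80% epiboly came with a very low level. Both groups were under 0.5 CPM, the value added to each mean, for 121 members at 80% epiboly and for 20 at 24 hpf. Where both means are that low, the added value keeps the ratio under 1 in size by arithmetic. A level of at least 1 CPM was reached in controls by 62 members at 80% epiboly, by 192 at 12 somites and by 168 at 24 hpf. Only 56 members reached it at all 3 stages.

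The 56 members present at every stage, with 45 distinct profiles, are those with a clear level behind the ratio at each stage. Their 12-somite ratios ran from -2.24 to -1.04 with a median of -1.25. The median ratios were -0.0175 at 80% epiboly and -0.0834 at 24 hpf, slightly below 0, although the median levels at those stages were slightly higher with atRA. Median levels at 80% epiboly were 4.76 CPM with atRA and 4.4 CPM in controls. At 12 somites they were 6.76 CPM with atRA and 16.6 CPM in controls, and at 24 hpf 11.3 CPM with atRA and 10.7 CPM in controls. In controls 32 of them were highest at 12 somites, 16 at 24 hpf and 8 at 80% epiboly. In 35 of the 56, the 12-somite level with atRA was below the control levels of both the earlier and the later stage. Over all members this held for 41, or 20.5%, against 13.3% of all transcripts with at least 1 CPM in some control group. The rule required a low 12-somite level with atRA, and the 56 were picked for clear control levels, so the 35 are a description.

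In controls few members were highest at the gastrula stage. The highest of the 3 control means was at 12 somites for 94 members, at 24 hpf for 94 and at 80% epiboly for 12. Among transcripts with at least 1 CPM in some control group, 46.7% of the members peaked at 12 somites against 26.9% of all 34823. At 80% epiboly the shares were 6.09% against 31.3%, and at 24 hpf they were closer, 47.2% against 41.85%. The 12-somite controls also entered the choice of members, so these shares are a description.

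The 94 members that peaked at 12 somites had median levels of 0.31 CPM with atRA and 0.267 CPM in controls at 80% epiboly. At 12 somites the medians were 1.37 CPM with atRA and 5.42 CPM in controls, and at 24 hpf 2.53 CPM with atRA and 2.42 CPM in controls. The median with atRA was thus lower at the middle stage than at 24 hpf. In 24 of these members the 12-somite level with atRA was still above both neighbouring control levels, in 53 it lay between them and in 17 it was below both.

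The 94 members that were highest at 24 hpf had medians of 0.147 CPM with atRA and 0.17 CPM in controls at 80% epiboly. At 12 somites these were 0.958 CPM with atRA and 3.35 CPM in controls, and at 24 hpf 9.13 CPM with atRA and 10.3 CPM in controls. In 78 of them the 12-somite level with atRA lay between the control levels of the other stages, and in 16 it was below both. Their ratio at 24 hpf had a median of -0.30, against -0.05 for the members that peaked at 12 somites.

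The 12 members that were highest at 80% epiboly had medians of 16.1 CPM with atRA and 16.9 CPM in controls there. At 12 somites their medians were 2.12 CPM in atRA embryos and 7.34 CPM in controls. By 24 hpf the medians were 2.49 CPM in atRA embryos and 3.08 CPM in controls. In 8 of the 12 the 12-somite level with atRA was already below the control level of 24 hpf. The medians in controls fell with stage, and at 12 somites the atRA median was lower still.

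**Figure D2:**
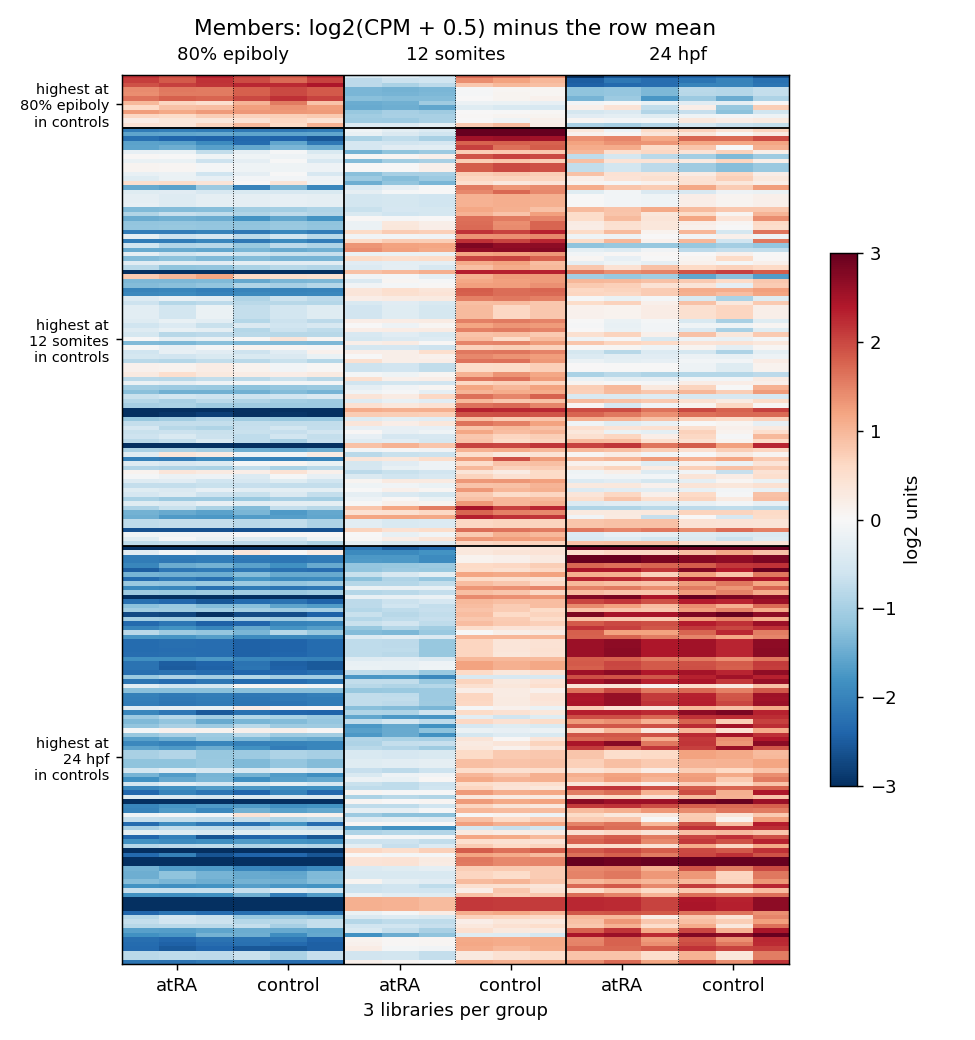
Levels of the 200 members (rows) in the 18 libraries (columns, 3 per group), as log2(CPM + 0.5) minus the mean of the row, in log2 units; rows are grouped by the stage of their highest control mean (12, 94 and 94 rows) and ordered within a group by the 12-somite ratio. The 12-somite atRA columns are lower than the control columns beside them in all rows, while the paired blocks at the other stages look alike.

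Most members normally became more abundant between the gastrula and 12 somites. Embryos with atRA showed only part of that rise, as the rule required. In controls 160 members were higher at 12 somites than at 80% epiboly by at least 1 log2 unit of CPM + 0.5, and 7 were lower by as much. Of all transcripts with at least 1 CPM in some control group, 26.9% were higher and 8.75% lower by that much. For the 160, the 12-somite level with atRA covered 26% of the control rise at the median, with quartiles of 14.4 and 31.6%. The highest value was 46.2%, and 8 members were below the 80% epiboly control level. With the ratio of -1 or lower that the rule required, no member could reach its full control rise, so these shares are a description. The count of 160 is a description too. The 12-somite controls entered the choice of members, and the added 0.5 CPM favours transcripts that are low in the gastrula.

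By 24 hpf the difference was much smaller, as the rule required. Between 12 somites and 24 hpf, 115 members were higher at 24 hpf by at least 1 log2 unit in atRA embryos and 45 in controls, as the conditions of the rule make likely. Over all such transcripts the shares were 14.9% in atRA embryos and 16.8% in controls. Levels with atRA were 84.7% of control levels at the median member at 24 hpf, with quartiles of 73.7 and 106%. These percentages, taken without the added 0.5 CPM, ran from 24.1 to 230%. The summed CPM at 24 hpf was 2408, 2385 and 2192 with atRA and 2657, 2687 and 2667 in controls, without overlap. With TMM scaling, which adjusts for library composition, the sums were 2193 to 2327 with atRA and 2235 to 2703 in controls and overlapped. At 80% epiboly the sums were 703 to 736 with atRA and 754 to 791 in controls, and TMM scaling kept the groups apart there. The summed group means differed by -48.2 CPM there (atRA minus control), and 3 members with 2 distinct profiles accounted for -49.5 CPM. These members were picked out after their values were seen, and the other members together differed by 1.30 CPM.

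Tests over all transcripts called some members at these stages. The rule limited the ratios of the members at both stages, but not those of the background. The calls and shares at both stages are therefore a description. At 80% epiboly 28 of 125 members tested were called, 9 higher and 19 lower, which is 22.4% against a background of 27.8%. The others were too low to be tested. The log2 fold changes of those called were 0.36 to 1.38 where higher and -1.62 to -0.18 where lower, since the fit does not add 0.5 CPM as the rule does. In all, 9 of the 125 had a fitted change of 1 or more in size. Among the 63 tested members with at least 1 CPM in some group, 18 were called and none (0) had a fitted log2 fold change of 1 or more in size. Leaving out control replicate 1 gave 18 calls in place of 28, and leaving out atRA replicate 2 gave 17. Calls over all transcripts fell as well in these refits, from 10605 to 8454 and 7933. All atRA libraries were below all controls in 24 of the 125 members (background 15.3%) and above them in 19 (background 27.6%). Over all 200 members these counts were 27 below and 26 above, and with TMM scaling 35 below and 14 above. The backgrounds given are for library totals, and those with TMM scaling were not computed.

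At 24 hpf 11 of 190 members tested were called, or 5.79%, against a background of 9.6%, and 48 had an unadjusted p under 0.05, a level that 25.4% of all transcripts tested reached. All 11, which come from 7 distinct profiles, were higher with atRA, with log2 fold changes of 0.41 to 0.59. This split depended on scaling, since library totals in place of TMM gave 4 higher and 9 lower. It also depended on single libraries: 32 members were called without control replicate 2 and 1 without control replicate 3. None (0) were called without control replicate 1 or without any 1 of the atRA libraries. Calls over all transcripts moved too, from 3975 of 41404 tested to 8549 of 41420 without control replicate 2. They were 2825 without control replicate 3, 918 without control replicate 1 and 658 to 1318 without 1 atRA library. Replicates of the members were least alike at this stage, with a median coefficient of variation of 10.6% with atRA and 14.4% in controls. All atRA libraries were below all controls in 58 of the 190 members (background 21%) and above them in 23 (background 11.9%). Over all 200 members these counts were 62 below and 24 above, and with TMM scaling 42 below and 38 above, so the split among members depended on scaling. The shares over all transcripts with TMM scaling were not computed, so these TMM counts have no background. The limit of the rule at 24 hpf shaped all these member shares, so nothing is read from their distance to the background.

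The change in normal development between 80% epiboly and 24 hpf involves none of the 12-somite libraries on which the members were chosen to differ. Its control libraries entered the limits on the other ratios, so it is not independent of the choice of members. Most members were far more abundant at the later stage. Of 194 members tested in the control libraries, 148 were called higher at 24 hpf (edgeR, quasi-likelihood F test, Benjamini-Hochberg adjusted p under 0.05), or 76.3%, against 43.5% of all 43237 transcripts tested. The test called 24 lower, or 12.4%, against 36.7%. The remaining 22 were not called and 6 were too low to be tested.

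The rise was mainly one of transcripts that were barely present in the gastrula. Of the 148, which come from 125 distinct profiles, 115 had under 0.5 CPM in the 80% epiboly controls. In 23 of the 148, no library of that group held more than 3 counts. Members that pass the filter on low counts only through their 24 hpf level had to rise. The rule also favours transcripts that are low in the gastrula, since the added 0.5 CPM keeps their ratio there small. The 76.3% is therefore a description. Among members with at least 1 CPM in both groups, 25 of 57 were called higher, or 43.9%, against 27.2% of all transcripts with such levels. Another 16 were called lower, or 28.1%, against 49.2%. This level was set after seeing the data, and these members were chosen by the same rule, so these shares are a description as well. The 24 members called lower had log2 fold changes of -6.37 to -0.46, and 12 of them peaked at 12 somites and 12 at 80% epiboly.

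**Figure D3:**
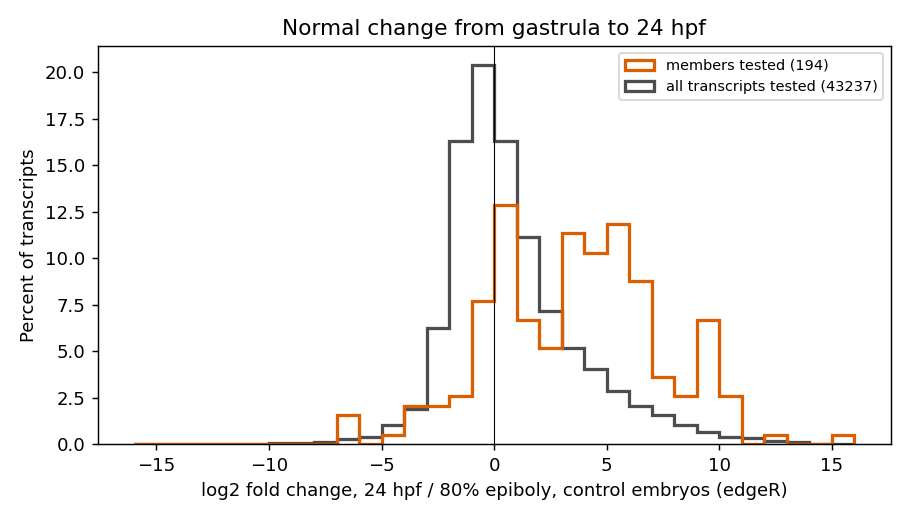
Distribution of the log2 fold change from 80% epiboly to 24 hpf in control embryos (horizontal axis, edgeR) as percent of transcripts (vertical axis), for the 194 members tested and for all 43237 transcripts tested. The members lie mostly to the right of 0, and 76.3% of them were called higher, which is a description because the rule and the count filter favour such members.

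The members named here had the largest rises and falls in that comparison among 89 that were called, did not overlap between the stages and averaged at least 10 counts in every group. ENSDART00000024207.9 had the largest rise, to 29, 24.7 and 30.4 CPM in 24 hpf controls, against 0.0805, 0.115 and 0.0952 CPM in 80% epiboly controls. This is 7.77 ± 0.172 (SE, n = 3 each) on the log2 scale, with an edgeR adjusted p of 4.63e-08. The SEs of the named transcripts were derived from the F statistic and are approximate. This one can be too small, as the 80% epiboly controls held only 8, 11 and 11 counts. At 12 somites it had 15.6, 15.1 and 15.3 CPM with atRA, against 36.5, 35.1 and 35 CPM in controls. At 24 hpf the atRA libraries held 28.4, 28.2 and 22.4 CPM, against the control values above, and the groups overlapped. In the gastrula the atRA libraries held 0.145, 0.171 and 0.149 CPM, all above the controls, with a fitted log2 fold change of 0.62 (edgeR adjusted p = 0.251). This transcript was thus well above its gastrula level by 12 somites in both groups, and lower with atRA at 12 somites.

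ENSDART00000143855.1 had the next largest rise. It stood at 31.9, 39.3 and 29.3 CPM in 24 hpf controls, against 0.201, 0.231 and 0.364 CPM in 80% epiboly controls, which is 6.59 ± 0.291 (SE) on the log2 scale, with an edgeR adjusted p of 5.07e-07. At 12 somites it had 2.4, 2.09 and 2.27 CPM with atRA, against 8.26, 6.48 and 6.85 CPM in controls. At 24 hpf it had 31.6, 25.2 and 25.2 CPM with atRA, and the groups overlapped. In the gastrula the atRA libraries held 0.2005, 0.1802 and 0.0497 CPM, all below the controls, of which the lowest was 0.2012. The fitted log2 fold change there was -0.92 (edgeR adjusted p = 0.132). The groups were thus apart at the intermediate level of 12 somites, narrowly apart at 80% epiboly, and overlapped at the high level of 24 hpf.

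ENSDART00000017849.4 had the largest fall of those eligible and was the member with the eighth lowest 12-somite ratio, -2.08. Its level fell to 0.399, 0.456 and 0.263 CPM in 24 hpf controls, against 19.7, 16.8 and 21.8 CPM in 80% epiboly controls, which is -6.07 ± 0.257 (SE) on the log2 scale, with an edgeR adjusted p of 4.25e-07. With atRA it stood at 21.6, 18.4 and 23.8 CPM at 80% epiboly, overlapping the controls. At 12 somites it had 2.87, 3.17 and 2.71 CPM with atRA, against 15.1, 14.2 and 12.4 CPM in controls. At 24 hpf it had 0.0677, 0.31 and 0.297 CPM with atRA. The 12-somite libraries of both groups thus lay between the gastrula and 24 hpf levels, with the controls nearer to the gastrula level than the atRA libraries.

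ENSDART00000103631.4 had the next largest fall, to 0.137, 0.299 and 0.0877 CPM in 24 hpf controls, against 2.36, 2.16 and 2.11 CPM in 80% epiboly controls, which is -4.01 ± 0.405 (SE) on the log2 scale, with an edgeR adjusted p of 3.86e-05. At 12 somites it had 1.26, 1.31 and 1.06 CPM with atRA, against 3.45, 4.1 and 4.06 CPM in controls. The order was the opposite at 80% epiboly, with 2.76, 3.3 and 3.78 CPM with atRA, above all controls. It was also the opposite at 24 hpf, with 0.429, 0.362 and 0.416 CPM with atRA, also above all controls. Its ratios, with 0.5 CPM added, were 0.48 at 80% epiboly and 0.42 at 24 hpf, just inside the limits. The fit at 80% epiboly gave a log2 fold change of 0.50 (edgeR adjusted p = 0.0112), and that at 24 hpf 1.26 (edgeR adjusted p = 0.16).

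**Figure D4:**
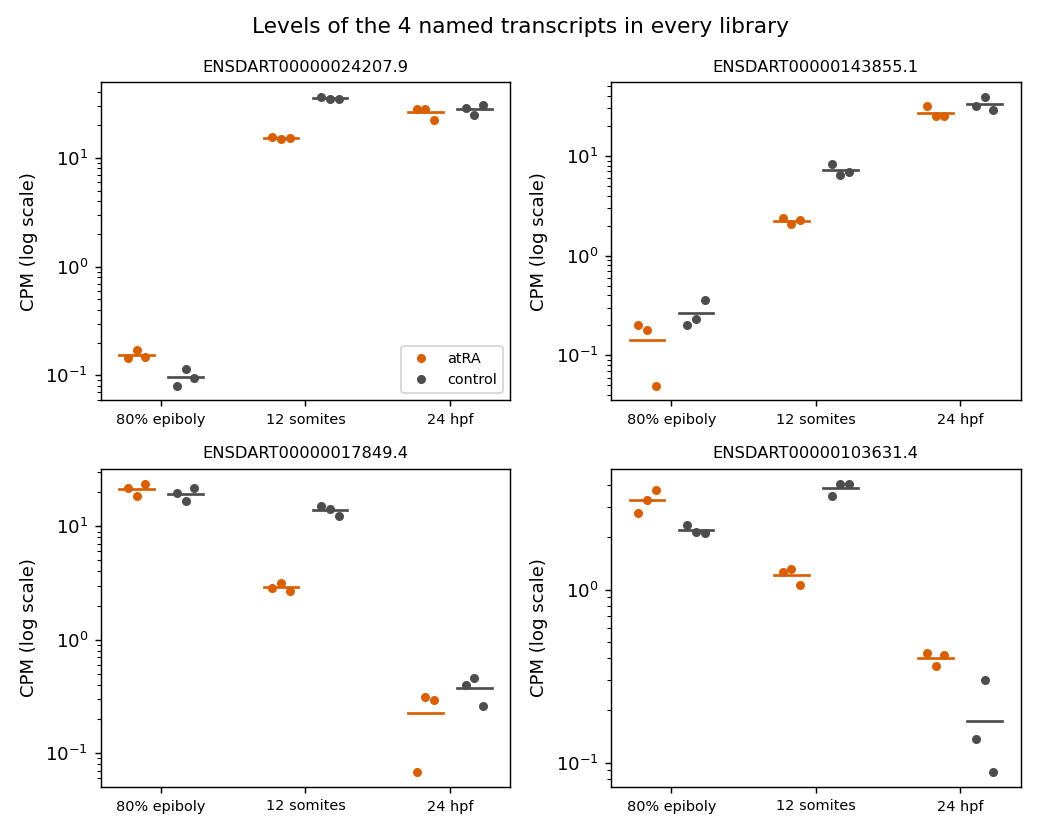
CPM on a log scale (vertical axis) of the 4 named transcripts in every library, by stage and treatment; points are libraries and bars are means of 3. At 12 somites the atRA libraries lie below all controls in each of the 4. The transcripts in the upper panels are higher at 24 hpf than at 80% epiboly, and those in the lower panels are under 0.5 CPM at 24 hpf.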

How the data were processed

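The authors deposited raw counts per transcript, 1 file per library, with 58549 Ensembl transcript IDs and 5 summary lines, which stayed out of totals and tests. STAR, HTSeq and the build GRCz10 (danRer10) are named in the submitters' processing notes, without versions or roles; annotation release and strand setting are not given in the sources used here. Isoforms and overlapping genes can share or split reads, and counts are not corrected for transcript length, so levels are compared within a transcript only.

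CPM used library totals. Each comparison was fitted with edgeR 4.0.16 (R 4.3.3) to the counts of the 2 groups compared: filterByExpr, TMM factors, quasi-likelihood test, Benjamini-Hochberg adjustment over all transcripts tested, called at an adjusted p under 0.05. Standard errors are the absolute log2 fold change over the square root of F. They are approximate and can be too small for large changes with few counts in a group. The fits were tested on simulated data. Alternatives used DESeq2 1.42.0, other scalings, filters and pseudocounts, a replicate block and leaving out each library. Planned gene lists and markers could not be used, because 0 IDs matched a gene name. Transcripts named are the 2 with the largest rise and the 2 with the largest fall in controls at 24 hpf against 80% epiboly, among members called there, without overlap and with a mean of at least 10 counts in each group; other members are given by rank, range or count. Members, lists and tests were chosen with earlier results of these data known.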

Additional observations from a re-analysis of the deposited data

Results flagged for a closer look

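In 24 members all atRA libraries were below all controls at 12 somites and above all controls at 24 hpf. Of all transcripts tested at 24 hpf, 11.9% had every atRA library above every control, against 12.1% of the members tested there, so the count is near the background. They come from 18 distinct profiles, and 18 of the 24 peaked at 12 somites in controls. Their log2 ratios at 24 hpf were 0.06 to 0.49, and 2 of them had under 0.5 CPM in both groups there. With TMM scaling there were 38 such members. The share over all transcripts with that scaling was not computed, so the comparison with the background holds for library totals only.

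In 26 members, from 21 distinct profiles, all atRA libraries were below all controls at 12 somites and above them at 80% epiboly. Of all transcripts tested at 80% epiboly, 27.6% had every atRA library above every control, against 15.2% of the members tested there. Their log2 ratios at 80% epiboly were 0.04 to 0.49, and 12 of them had under 0.5 CPM in both groups there. With TMM scaling there were 14, and the share over all transcripts with that scaling was not computed. Neither difference between stages was tested, because the members were selected on these ratios.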

How the results depend on the processing

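Of 166 counts under alternatives, 149 stayed within 1.5 times. These include the 12-somite calls, which the rule made likely. For atRA against control only total calls were compared, not their split into higher and lower. The pseudocount moved membership most: with 0.1 CPM 420 transcripts met the conditions and 117 of the 200 were among the 200 lowest, and with 2 CPM 104 met them, 73 of the 200 among these. With TMM scaling 220 transcripts met the conditions, with 181 of the 200 among these and 169 of the 200 among the 200 lowest. Leaving out 1 library gave 215 to 239 transcripts past the thresholds and left 174 to 198 of the 200 past the thresholds, the fewest without 24 hpf control replicate 2. With 1 ID for each distinct profile, an alternative added once the values were known, 169 members were left, of which 81 peaked at 12 somites, 77 at 24 hpf and 11 at 80% epiboly.

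For 24 hpf against 80% epiboly in controls, 84 members were higher with at least 10 counts in every library, and 25 when only members with at least 1 CPM in both groups counted, an alternative chosen after seeing the data; both leave fewer members by construction. Leaving out 1 library gave 145 to 150 higher and 22 to 25 lower. Library totals moved the median log2 fold change of all transcripts to 0.54, where TMM gave 0.16, and the members to 160 higher and 17 lower. The refits gave 46 values for the 4 named transcripts, and all kept direction and call (adjusted p up to 0.000546, edgeR or DESeq2). ENSDART00000024207.9 and ENSDART00000103631.4 had no value in the refit with at least 10 counts in every library. The 4 were picked for large, called changes in this same comparison, so this is a description.

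For atRA against control, leaving out 1 library gave 17 to 27 member calls at 80% epiboly and 0 to 32 at 24 hpf. The DESeq2 test gave 23 at 24 hpf. Calls over all transcripts were 7933 to 10602 at 80% epiboly and 658 to 8549 at 24 hpf without 1 library. With DESeq2 they were 5894 at 24 hpf, and the cause of these shifts was not tested. All 200 were called at 12 somites in each of these refits. The replicate numbers showed no consistent pairing. Between groups, the deviations of libraries with the same number had correlations of 0.13, -0.62 and -0.66 at 24 hpf. In the other comparisons they were -0.13 to 0.05. The 24 hpf libraries thus shared deviations across treatments that did not follow the numbers, and their source was not tested. With the replicate number as a block, 0 members were called at 24 hpf and 144 were higher between the control stages. The block left 154 calls over all transcripts at 24 hpf, against 3975 without it. The atRA libraries were shallower and the spread between replicates was widest at 24 hpf; the part of either in the number of calls was not tested.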
